A study of Homo sapiens with 6 samples.

Results

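The immunoproteasome and PA28 genes comprised 6 genes, PSMB8, PSMB9, PSMB10, PSME1, PSME2 and PSME3, of the 20289 genes in the deposited table. They were taken by symbol, and each symbol matched 1 row. Poly(A) RNA was sequenced from 3 UBE2S knockout libraries and 3 wild-type libraries, all of Huh7 cells. Huh7 is a human hepatocellular carcinoma line, and UBE2S is a ubiquitin-conjugating enzyme that extends ubiquitin chains with the anaphase-promoting complex. The study asked which factors act downstream of UBE2S in these cells. The labels name no drug, time point, clone or guide, and give no word on whether replicates came from separate cultures. Any p-value then measures only the spread between these libraries, which may be technical.

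The proteasome is the protease that degrades ubiquitin-tagged proteins, and its 20S core carries its catalytic sites on beta subunits. Immune cells, and other cells exposed to interferon-gamma, make the immunoproteasome, in which PSMB8 (also called LMP7), PSMB9 (LMP2) and PSMB10 (MECL-1) take the places of PSMB5, PSMB6 and PSMB7. It is known for making peptides that are loaded onto MHC class I molecules. PA28 is a ring that caps the core and opens it without ATP. PSME1 and PSME2 encode its interferon-inducible alpha and beta subunits, which form a mixed ring, and PSME3 encodes the nuclear gamma subunit, which forms a ring of its own.

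The 6 members were selected on their levels and differences between knockout and wild type, which were already known. Their levels and differences are therefore given as a description, without a test. Differences are log2 fold changes of the knockout over wild type, fitted with edgeR across all tested genes. A level is in CPM, the count as a part of the library size after scaling the libraries by TMM.

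Promoter sequences are shown first, since most interferon-inducible members share a short element near their start. The stretches below run from 100 bases before the RefSeq start site to 25 bases from it (GRCh38.p14), and capitals mark matches on either strand to GAAA, 2 bases of any kind and GAAA again, the core of the interferon-stimulated response element.
PSMB8, chr6:32844023-32844147, minus strand: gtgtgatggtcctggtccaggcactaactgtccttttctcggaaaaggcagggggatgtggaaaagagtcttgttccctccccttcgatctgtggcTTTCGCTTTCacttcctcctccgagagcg
PSMB9, chr6:32854092-32854216, plus strand: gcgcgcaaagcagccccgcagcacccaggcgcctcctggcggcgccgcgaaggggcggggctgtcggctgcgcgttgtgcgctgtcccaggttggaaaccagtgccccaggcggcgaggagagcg
PSMB10, chr16:67936826-67936950, minus strand: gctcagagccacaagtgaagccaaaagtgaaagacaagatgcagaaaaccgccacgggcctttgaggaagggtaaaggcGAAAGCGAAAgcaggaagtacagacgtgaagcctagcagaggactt
PSME1, chr14:24136094-24136218, plus strand: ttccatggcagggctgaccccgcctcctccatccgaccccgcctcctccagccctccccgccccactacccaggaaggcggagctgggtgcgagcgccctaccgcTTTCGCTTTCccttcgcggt
PSME2, chr14:24146586-24146710, minus strand: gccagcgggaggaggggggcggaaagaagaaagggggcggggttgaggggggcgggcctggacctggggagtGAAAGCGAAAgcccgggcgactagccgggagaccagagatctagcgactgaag
PSME3, chr17:42833297-42833421, plus strand: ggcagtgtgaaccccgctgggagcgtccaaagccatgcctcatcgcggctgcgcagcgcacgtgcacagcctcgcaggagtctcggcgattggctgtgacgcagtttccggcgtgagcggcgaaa

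In these windows PSMB8, PSMB10, PSME1 and PSME2 each held 1 match, and in all 4 the bases were GAAAGCGAAA on one strand or the other. The match spanned the start site in PSMB8, from base -4 to base 6, in the second of its 2 RefSeq windows. The first PSMB8 window, not shown, held no match. In PSMB10 the match lay from -21 to -12, in PSME1 from 6 to 15 and in PSME2 from -28 to -19, counted from the start site as base 1. PSMB9 and PSME3 had no match in the whole RefSeq window, which reaches further upstream and downstream than the bases shown. Of all 35116 whole promoter windows, which are longer than the stretches shown, 1255 (3.57%) held a match. By gene, with any of its windows counted, the share was 4.38% of 27305. TAP1, the transporter gene that starts 488 bases from PSMB9 on the opposite strand, held 2 overlapping matches in its own window, which lie 354 to 369 bases before the PSMB9 start and so outside the PSMB9 window.
TAP1, chr6:32853795-32853864, minus strand: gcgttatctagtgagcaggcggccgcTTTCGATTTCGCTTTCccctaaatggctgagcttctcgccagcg
The element TTCNNNGAA, the core bound by STAT dimers, reads the same on both strands. It was found in the second PSMB8 window (-65 to -57), in the PSME3 window (-230 to -222) and in 7.66% of all windows. Outside the members it was also found in the second TAP1 window (-189 to -181), in the window of the factor gene IRF9 and at 2 places in PSMB5. A match describes the letters alone and does not show that a factor was bound.

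The libraries held 21840499 to 25840104 estimated counts in the knockout and 23300336 to 27910396 in wild type. UBE2S itself had 44.2 to 47.6 CPM in the knockout libraries and 216 to 234 CPM in the wild-type libraries, and its log2 fold change was -2.29 with an SE of 0.04 (adjusted p = 1.6e-12 with edgeR). Wild-type replicate 1 differed more from the other wild-type libraries (chi-square per degree of freedom 8.11 and 10.4) than they did from each other (1.79). Between knockout libraries the values were lower, at 1.55, 1.41 and 1.45, where counting error alone would give about 1. All 14 hepatocyte and hepatoma markers were detected, with a summed level of 30053 to 30631 CPM in the knockout and 32987 to 33739 CPM in wild type. Of 11 immune cell markers, whose cells make immunoproteasomes constitutively, CD3E, MS4A1, NKG7 and HLA-DRA were at 0 in every library and PTPRC reached at most 0.0455 CPM in the knockout and 0.285 CPM in wild type. The summed level of the 11 was 194 to 199 CPM in the knockout and 315 to 339 CPM in wild type, most of it LYZ. Of the 5 that were tested, 4 fell and 0 rose with edgeR. CD68 had 7.78 to 8.94 CPM in the knockout and 15.8 to 17.6 CPM in wild type. LYN had 13.7 to 16.3 against 24.4 to 25.5 CPM and CD14 4.28 to 5.24 against 5.88 to 7.17 CPM, while ITGAM overlapped between the groups. The part of these markers in the results was not tested. Of 7 stromal markers 3 rose and 2 fell with edgeR, and their sum of 20.9 to 22.1 CPM in the knockout and 141 to 158 CPM in wild type was set by COL1A2, with 0.257 to 0.409 CPM in the knockout and 129 to 145 CPM in wild type. COL1A1, COL3A1 and PDGFRB were higher in every knockout library than in any wild-type library. Endothelial markers summed to 2.36 to 2.86 CPM in the knockout and 5.78 to 7.08 CPM in wild type.

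The knockout libraries held less RNA of PSMB9, PSMB8, PSME2 and PSME1 than the wild-type libraries, in that order of size, while PSMB10 and PSME3 lay close to their wild-type levels. All 6 members passed the filter on low counts. The groups did not overlap in 5 of the 6, in 4 of them with the knockout lower and in PSME3 with the knockout higher. Across all 13265 tested genes the groups did not overlap in 65.8%, with the knockout lower in 33.5% and higher in 32.3%. The median log2 fold change of the 6 was -0.70, against -0.0006 for all tested genes. Because the members were chosen with this contrast known, nothing is read from their count or median. Bulk RNA cannot tell fewer cells with a transcript apart from less transcript per cell.

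**Figure D1:**
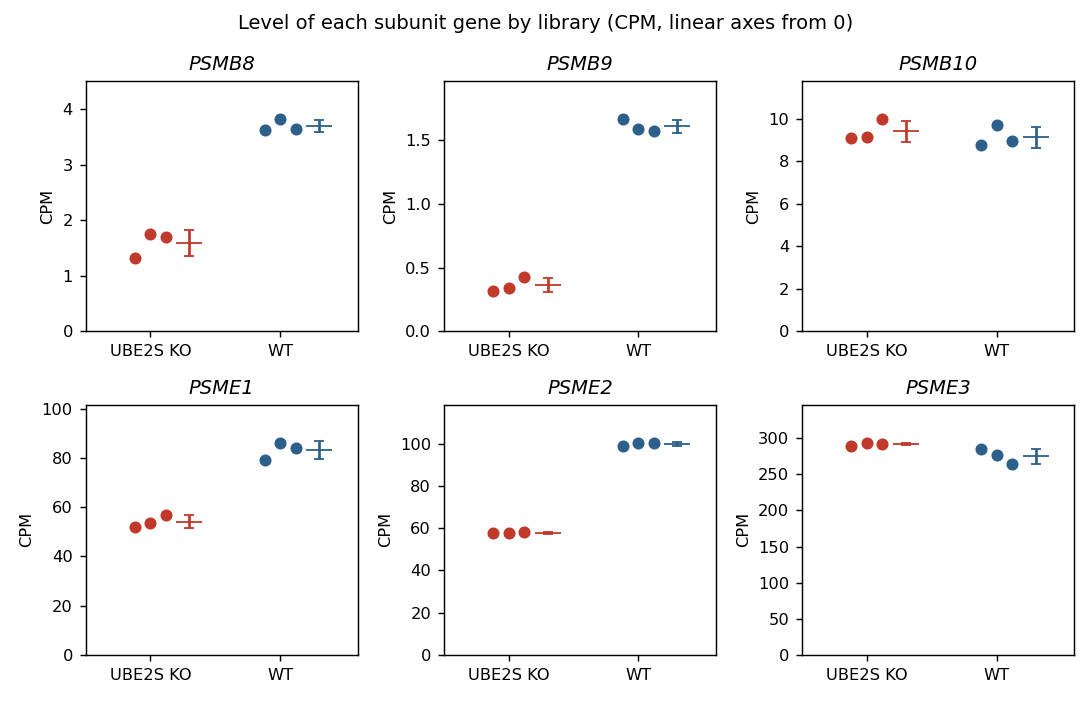
Level of each member in CPM (linear axes from 0) in the 3 UBE2S knockout libraries, left, and the 3 wild-type libraries, right; points are libraries, and the bars beside them give the mean and SD. The knockout points lie below the wild-type points for PSMB8, PSMB9, PSME1 and PSME2, overlap them for PSMB10 and lie just above them for PSME3.

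PSMB8 and PSMB9 replace the chymotrypsin-like and the caspase-like catalytic subunits, and both were scarce in these cells. PSMB9 had 7, 8 and 11 counts in the knockout libraries, against 45, 37 and 44 counts in the wild-type libraries. That is 0.318, 0.342 and 0.424 CPM in the knockout, against 1.66, 1.59 and 1.57 CPM in wild type. The knockout libraries were all low and the wild-type libraries all high, and no library of either group came near the other group. The log2 fold change was -2.13 (SE 0.25), the largest of the 6 in size. As a ratio of summed counts, wild type was 4.41 times the knockout, with an exact 95% binomial interval of 2.87 to 7.01 that covers counting error only. Only 1 knockout library reached 10 counts, so PSMB9 passed the filter through its wild-type libraries and had to differ to some extent. Of all tested genes 1.00% had a log2 fold change as low or lower.

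PSMB8 had 29, 41 and 44 counts in the knockout libraries, against 98, 89 and 102 in the wild-type libraries. In CPM these were 1.32, 1.75 and 1.70 in the knockout and 3.62, 3.82 and 3.64 in wild type. The wild-type libraries were closely grouped, and knockout replicate 1 was the lowest of the knockout libraries. The log2 fold change was -1.21 (SE 0.15), and the ratio of summed counts put wild type at 2.31 times the knockout (exact 95% binomial interval 1.85 to 2.89, counting error only). Of all tested genes 2.33% had a log2 fold change as low or lower. The same share was 5.08% for PSME2, 7.79% for PSME1, 56.5% for PSMB10 and 61.1% for PSME3. These shares, like that of PSMB9, place genes chosen with this contrast known and are not a test.

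PSMB10, which replaces the trypsin-like subunit, had 9.09, 9.15 and 9.98 CPM in the knockout libraries, against 8.76, 9.69 and 8.95 CPM in the wild-type libraries. The groups overlapped, and the log2 fold change was 0.05 (SE 0.08). By ratio of summed counts wild type was 0.965 times the knockout, with an interval of 0.867 to 1.07 for counting error only.

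PSME1 and PSME2 encode the subunits of the interferon-inducible PA28 ring. PSME2 had 57.6, 57.8 and 58.2 CPM in the knockout libraries, against 99.0, 100.4 and 100.2 CPM in the wild-type libraries. Its replicates lay within 1 CPM of their group mean, and the groups were widely separated. The log2 fold change of PSME2 was -0.79 (SE 0.03). PSME1 had 51.9, 53.7 and 56.9 CPM in the knockout libraries, against 79.0, 86.1 and 84.0 CPM in the wild-type libraries. The spread among PSME1 replicates was larger than that of PSME2, but the groups again did not overlap, and the log2 fold change was -0.61 (SE 0.05). The lowest count behind either gene was 1141, in PSME1 of knockout replicate 1, so counting error was small beside the difference.

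PSME3, which encodes the nuclear PA28 gamma, had 290, 294 and 292 CPM in the knockout libraries, against 285, 277 and 264 CPM in the wild-type libraries. The knockout libraries all lay above the wild-type libraries, but by little, and the wild-type libraries spread over more than the gap between the groups. The log2 fold change was 0.08 (SE 0.03). Without wild-type replicate 3 it was 0.06, and without wild-type replicate 1 it was 0.11.

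Levels of different genes were compared only per kilobase of transcript, with the median length of each gene's complete coding transcripts in GENCODE 29. In the knockout the order was PSME3 at 94.7 ± 0.593, PSME2 at 71.1 ± 0.407, PSME1 at 53.1 ± 2.49, PSMB10 at 7.73 ± 0.410, PSMB8 at 1.41 ± 0.210 and PSMB9 at 0.459 ± 0.0705 CPM per kilobase (SD, n = 3). In wild type it was PSME2 at 123 ± 0.955, PSME3 at 89.3 ± 3.31, PSME1 at 81.4 ± 3.57, PSMB10 at 7.50 ± 0.403, PSMB8 at 3.29 ± 0.0959 and PSMB9 at 2.04 ± 0.0640 CPM per kilobase. PSME2 was thus first in wild type and second in the knockout. The closest neighbours in either order were PSME3 and PSME1 in wild type, with 85.8 to 92.3 against 77.4 to 84.4 CPM per kilobase, which did not overlap but were separated by less than the range of either. Per kilobase of all annotated exons, PSME2 stood below PSME3 and PSME1 in both groups (16.1, 56.7 and 30.4 CPM per kilobase in the knockout and 27.9, 53.4 and 46.6 in wild type), so its place depends on which exons are counted. Among 13072 tested genes with a length, PSMB9 exceeded 7.4% in the knockout and 19.8% in wild type, and PSME3 exceeded 93.5% in the knockout and 92.8% in wild type.

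The standard catalytic subunits that the immunoproteasome genes replace were far more abundant. PSMB5 had 133 ± 6.14, PSMB6 209 ± 3.52 and PSMB7 237 ± 2.77 CPM per kilobase in the knockout, against 191 ± 7.37, 198 ± 13.4 and 241 ± 12.8 CPM per kilobase in wild type (SD, n = 3). Together PSMB8, PSMB9 and PSMB10 made up 1.631% ± 0.0930 of the summed level of the 6 catalytic genes in the knockout, against 1.997% ± 0.0650 in wild type. Within the pairs, PSMB8 was 0.909%, 1.17% and 1.07% of PSMB8 plus PSMB5 in the knockout libraries, against 1.59%, 1.78% and 1.71% in the wild-type libraries. PSMB9 was 0.191%, 0.206% and 0.262% of PSMB9 plus PSMB6 in the knockout libraries, against 1.14%, 0.982% and 0.947% in the wild-type libraries. Both pairs were separated between the groups, although PSMB5, the partner of PSMB8, was itself lower. PSMB10 was 3.16% ± 0.172 of PSMB10 plus PSMB7 in the knockout, against 3.02% ± 0.116 in wild type, and these groups overlapped. PSME1 made up 42.7% ± 1.00 of PSME1 plus PSME2 in the knockout, against 39.9% ± 0.874 in wild type, without overlap. These shares are of RNA and do not measure assembled particles. Their size also depends on the lengths used, here the medians of coding transcripts. Per kilobase of all annotated exons, PSME1 exceeded PSME2, with 30.4 against 16.1 CPM in the knockout and 46.6 against 27.9 in wild type. The same lengths apply to both groups, so whether the groups overlapped within a pair does not depend on them.

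**Figure D2:**
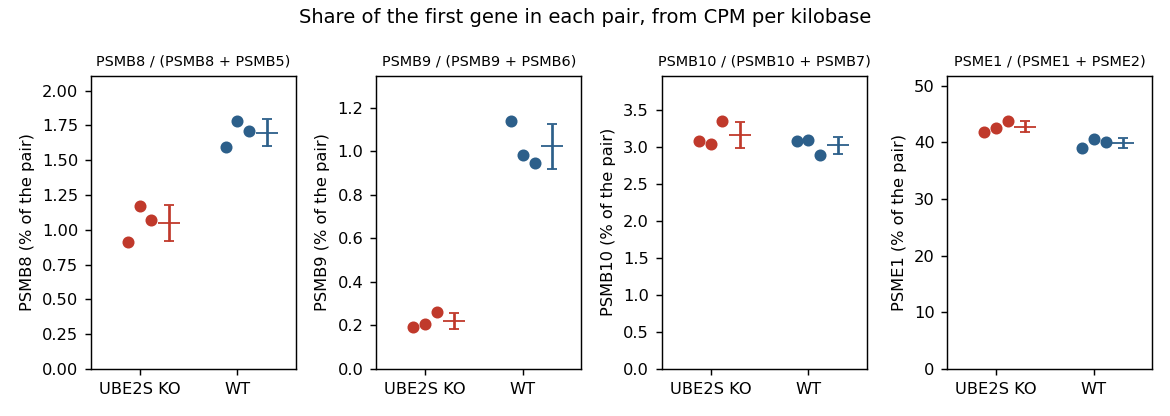
Share of the first gene in each pair, in percent of the summed CPM per kilobase of both (linear axes from 0), in the 3 UBE2S knockout libraries, left, and the 3 wild-type libraries, right; bars give the mean and SD. The share of PSMB8 and of PSMB9 was lower in every knockout library, that of PSMB10 overlapped between the groups, and that of PSME1 was slightly higher in every knockout library. The size of each share rests on median coding transcript lengths.

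The members were next set beside their chromosome neighbours. In GENCODE 29 (GRCh38), PSMB8 (ENSG00000204264) spans chr6:32840717-32844703 on the minus strand and PSMB9 (ENSG00000240065) spans chr6:32844136-32859585 on the plus strand, both in the MHC class II region. PSME1 (ENSG00000092010) spans chr14:24136158-24138967 on the plus strand and PSME2 (ENSG00000100911) spans chr14:24143362-24147570 on the minus strand, so these members are neighbours too. PSMB10 (ENSG00000205220) spans chr16:67934502-67937087 on the minus strand, and PSME3 (ENSG00000131467) spans chr17:42824385-42843758 on the plus strand. All are protein coding.

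PSME1 and PSME2 lie among genes that were mostly lower in the knockout. Of the 25 tested genes on each side of PSME2, 36 fell and 2 rose (edgeR adjusted p below 0.05), and their median log2 fold change was -0.39. For PSME1, 35 of 50 fell and 2 rose, with the same median of -0.39. These windows cover mostly the same genes, and each counts the other member, so 49 of its 50 genes are not members. Over all tested genes 30.7% fell and 29.4% rose. The nearest neighbours of PSME1 and PSME2 were DCAF11 (-0.55, SE 0.03), EMC9 (-0.63, SE 0.14) and RNF31 (-0.46, SE 0.05), and all 3 fell. With the median of the neighbours subtracted, PSME2 was at -0.39 and PSME1 at -0.22 on the log2 scale, and 6 and 11 of their 50 neighbours were as low as they were. PSMB5 lies on the same chromosome at a distance of under 2 Mb, and 34 of its 50 neighbours fell and 4 rose, with a median of -0.36. PSME1 and PSME2 are among those 50, so this window is not a separate set of genes. The part of this regional shift in the PSME1 and PSME2 values was not tested.

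PSMB8 and PSMB9 stood apart from most of their neighbours. The 50 genes around PSMB9 had a median log2 fold change of -0.09, with 18 that fell and 14 that rose, and none was as low as PSMB9. Beyond these 50, but within 4 Mb, LTB (-2.91), HLA-C (-4.32), MICB (-5.03) and OR12D2 (-3.56) were lower than PSMB9. Around PSMB8 the median was also -0.09, and 3 of 50 were as low, PSMB9 and TAP1 among them. With the median subtracted, PSMB9 was at -2.03 and PSMB8 at -1.11. Both genes of the peptide transporter, which lie closest, fell. TAP1 had 2.43 ± 0.0749 CPM in the knockout and 7.76 ± 0.730 CPM in wild type (SD, n = 3), with a log2 fold change of -1.67 and an SE of 0.12 (adjusted p = 1.2e-07 with edgeR). TAP2 fell by 0.51 (SE 0.07, edgeR adjusted p = 5.6e-05). Beyond them, BRD2 was at -0.12 (SE 0.04) on one side, and PBX2 rose by 0.47 (SE 0.06) on the other. PSMB10 and PSME3 lie among genes whose medians were 0.04 and 0.10. Subtracting these put PSMB10 at 0.0034 and PSME3 at -0.01, so the small positive difference of PSME3 did not exceed that of its neighbourhood.

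**Figure D3:**
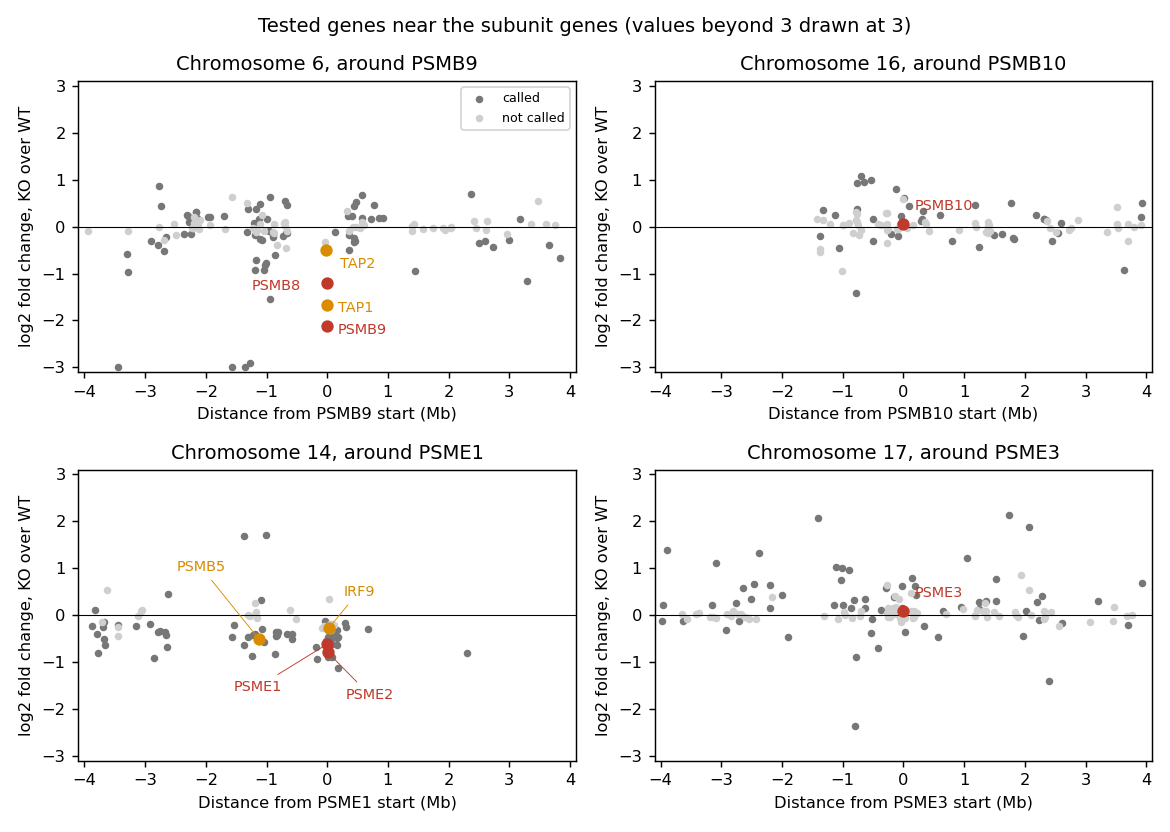
Log2 fold change, UBE2S knockout over wild type, of tested genes within 4 Mb of PSMB9, PSMB10, PSME1 and PSME3, against the distance of each gene's leftmost base from that of the named member; dark points passed the edgeR test and light points did not, red points are members, orange points are TAP1, TAP2, PSMB5 and IRF9, and values beyond 3 in size are drawn at 3. PSME1 and PSME2 lie within a band of neighbours below 0, whereas PSMB8 and PSMB9 lie below most of their neighbours.

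Some members overlap other genes, and the sources used here do not say whether counting kept the strand. PSMB8 and PSMB9 share 139 exonic bases on opposite strands, and 618 exonic bases of PSMB8 are shared with the antisense transcript PSMB8-AS1, which is not analysed here. PSMB9 shares 174 exonic bases with PSMB8-AS1 on its own strand, so keeping the strand would not separate them. Reads in these stretches cannot be assigned between them. TAP1 lies inside the span of PSMB9 but shares 0 exonic bases with it. PSMB10 shares 644 exonic bases with an overlapping gene on its own strand, ENSG00000261884, which had 0.491 CPM in the knockout and 0.480 CPM in wild type, and the PSMB10 estimates were not whole numbers. PSME1 shares 9 exonic bases with EMC9, PSME2 shares 216 with RNF31 and PSME3 shares 300 with BECN1, which was at 0.03 (SE 0.03). PSME2 also has 2 annotated pseudogenes, not analysed here, with which reads could be shared.

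The rest of the proteasome was set beside the members as lists, and 60.1% of all tested genes passed the edgeR test at an adjusted p of 0.05, 29.4% higher and 30.7% lower. Of the 14 standard 20S subunits 5 rose and 4 fell, with a median log2 fold change of 0.03. The number that fell was 3 under most alternatives and 6 without wild-type replicate 1. PSMB4 rose by 0.33 (SE 0.03), PSMB1 by 0.33 (SE 0.04) and PSMA2 by 0.30 (SE 0.07; 0.19 without wild-type replicate 1), while PSMB5 (-0.51, SE 0.04), PSMB2 (-0.22, SE 0.03) and PSMB3 (-0.15, SE 0.03) fell. Of the counterparts, PSMB5 fell (edgeR adjusted p = 2.5e-07), and PSMB6 (0.07, SE 0.04, adjusted p = 0.16) and PSMB7 (-0.02, SE 0.04, adjusted p = 0.60) did not pass. PSMB6 passed without wild-type replicate 3 (0.11), PSMB7 passed without wild-type replicate 1 (-0.07), and PSMB7 was at 0.0002 without wild-type replicate 2. The 14 standard subunits ranged between -0.51 and 0.33, and the differences of PSMB8 and PSMB9 were larger in size. The members were chosen with this contrast known, so nothing further is read from that comparison.

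Of 19 subunits of the 19S cap, the ATP-dependent alternative to PA28, 4 rose and 6 fell (median -0.0064, range -0.44 to 0.36). The ubiquitin receptor gene PSMD4 (0.36), PSMD12 (0.10) and PSMD7 (0.10) rose, and PSMD8 (-0.44), PSMC4 (-0.43) and SEM1 (-0.28) fell. Without knockout replicate 2 only 2 rose, and PSMD7 (0.09) was not among them. Of 16 assembly factors and other regulators 6 rose and 3 fell, with a median of 0.04. The chaperone genes PSMG3 (0.38), PSMD9 (0.35) and PAAF1 (0.22) rose, while DDI2 (-0.49) and NGLY1 (-0.30), which process the transcription factor that drives standard proteasome genes, and ECPAS (-0.17) fell. The number that fell was 5 without wild-type replicate 2 or without wild-type replicate 3. POMP, whose product assembles immunoproteasomes as well as standard ones, rose by 0.15 (SE 0.05, edgeR adjusted p = 0.025); it was named here after its values were seen.

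Antigen presentation and interferon-gamma genes were examined because the products of PSMB8, PSMB9, PSMB10, PSME1 and PSME2 serve that pathway. Of 14 tested genes of MHC class I loading and presentation 10 fell and 0 rose with edgeR, with a median of -0.28. None rose at an unadjusted p below 0.05 with edgeR, DESeq2 or limma-voom either, and DESeq2, which gave a p for 15, counted 8 that fell. The largest falls were those of HLA-C (-4.32, SE 0.19), a class I heavy chain gene whose reads may be shared with other HLA genes, and of TAP1 and TAP2, the neighbours of PSMB9 and PSMB8. HLA-C averaged 0.440 ± 0.0999 CPM in the knockout and 8.80 ± 1.20 CPM in wild type (SD, n = 3 each).

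Of 17 tested genes of the interferon-gamma pathway and of the factors that act on immunoproteasome genes, 5 rose and 9 fell (median -0.16). IRF1, a transcription factor known to drive PSMB9 and TAP1, fell by 0.47 (SE 0.06, edgeR adjusted p = 3.9e-05), as did IRF3 (-0.56) and the NF-kB subunit gene NFKB1 (-0.48). The factor gene IRF8 rose but was scarce, with 2.24 ± 0.503 CPM in the knockout and 0.320 ± 0.0308 CPM in wild type (SD, n = 3 each). It passed the filter on low counts through its knockout libraries and so had to differ to some extent. The suppressor gene SOCS3 (1.00) and the receptor gene IFNGR1 (0.42) also rose. Fewer genes of this list passed in some settings: 3 rose and 5 fell among the 18 with a p from DESeq2, 3 rose when knockout replicate 1, 2 or 3 or wild-type replicate 2 was left out, and 5 fell without knockout replicate 3.

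Of 12 tested interferon-gamma induced genes outside the MHC class I list, 2 rose and 8 fell (median -0.20), and 5 fell without knockout replicate 2. CD74 (-4.41, SE 0.23), GBP1 (-2.58, SE 0.09) and GBP2 (-2.27, SE 0.07) fell. CD74 encodes the MHC class II invariant chain, and GBP1 and GBP2 encode guanylate-binding proteins. CD74 was scarce, with 0.208 ± 0.0633 CPM in the knockout and 4.56 ± 0.288 CPM in wild type (SD, n = 3 each). It passed the filter on low counts through its wild-type libraries and so had to differ to some extent. GBP3 (0.81, SE 0.22) and UBE2L6 (0.58, SE 0.06) rose. For comparison, the interferon-inducible members were at -2.13 (PSMB9), -1.21 (PSMB8), -0.79 (PSME2), -0.61 (PSME1) and 0.05 (PSMB10). The members were chosen with this contrast known, so nothing further is read from that comparison.

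**Figure D4:**
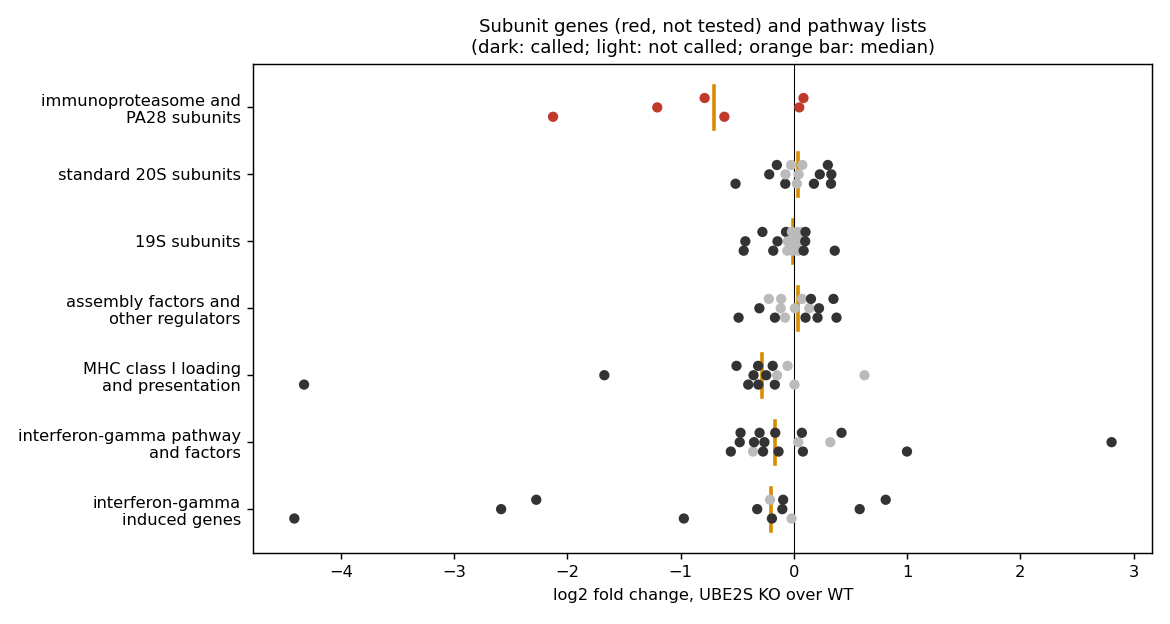
Log2 fold change, UBE2S knockout over wild type, of the 6 members (red, not tested) and of the tested genes of 6 lists (dark where the edgeR test was passed, light where not), with the median of each row as an orange bar. The standard 20S and 19S subunits lie between -0.51 and 0.36. Of the members, PSMB9, PSMB8, PSME2 and PSME1 lie between -2.13 and -0.61, and PSMB10 (0.05) and PSME3 (0.08) lie within the range of the standard subunits.

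The 5 genes whose pattern over the 6 libraries was most like that of PSMB9 were sought among the 9461 tested genes whose mean level reached 10 CPM. Likeness was the root mean square difference of centred log2 CPM, computed with a prior count of 2, which shrinks the difference of a gene as scarce as PSMB9. COL9A2 was nearest, with a root mean square difference of 0.0971 on the log2 scale, followed by RSRP1 (0.121), SORL1 (0.139), MGLL (0.162) and LOX (0.176). Their fitted log2 fold changes ran from -1.88 in COL9A2 to -1.64 in LOX. With 2 groups of 3 libraries, this measure finds mainly genes with a difference of like size.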

How the data were processed

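Poly(A) RNA of 3 UBE2S knockout and 3 wild-type Huh7 libraries was enriched with oligo(dT) beads and read on a NovaSeq, per the labels' protocols. The deposited table gives estimated counts, not normalized and partly not whole. The programs HISAT2, Bowtie2 2.2.8, DESeq2 and StringTie 1.3.1 are listed without their roles, per the submitters' processing notes. Counting program, annotation, build and strand setting: not given in the sources used here.

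Estimated counts were rounded, filtered with filterByExpr (minimum count 10) and scaled by TMM. Knockout was compared with wild type by quasi-likelihood F tests in edgeR 4.0.16 (R 4.3.3), without covariates, with Benjamini-Hochberg adjustment over 13265 genes and a threshold of 0.05. Each SE is the fitted log2 fold change divided by the square root of F. Positions and lengths came from GENCODE 29, matched by identifier for 20171 genes (99.4%), and promoters from RefSeq (GRCh38.p14), which held all 6 members.

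The members and lists were chosen with earlier results of these data known. Of each list, up to 3 called genes in each direction with the largest change were named, with PSMB5, PSMB6, PSMB7, TAP1 and UBE2S, and the genes nearest to members by position. One immune cell marker is not reported here. Alternatives were other scalings and filters, DESeq2 1.42.0, limma-voom (limma 3.58.1), a replicate block, each library left out, and subtraction of the neighbours' median.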

Additional observations from a re-analysis of the deposited data

How the results depend on the processing

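The log2 fold changes of PSMB8, PSMB9, PSME1 and PSME2 stayed below 0 under every alternative run, and that of PSMB10 stayed above 0 under every one. Subtracting the median of chromosome neighbours moved PSME1 to -0.22 and PSME2 to -0.39 and turned PSME3 to -0.0133; the cause was not tested. PSME2 was -0.77 with upper quartile or total count scaling. Leaving out each library in turn gave -1.28 to -1.10 for PSMB8, -2.26 to -2.05 for PSMB9, 0.0007 to 0.09 for PSMB10, -0.65 to -0.58 for PSME1, -0.80 to -0.78 for PSME2 and 0.06 to 0.11 for PSME3.

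With a library left out, 7142 to 8457 genes were called over all tested genes. In the same settings 3 to 6 of the standard 20S subunits fell, 2 to 4 of the 19S subunits rose, and 3 to 5 assembly factors and regulators fell. Among genes of the interferon-gamma pathway 3 to 5 rose and 5 to 9 fell, and 5 to 8 interferon-gamma induced genes fell. DESeq2 gave 3 higher and 5 lower for the interferon-gamma pathway. Leaving out each library gave -0.0684 to 0.0002 for PSMB7, which changed sign without wild-type replicate 2.

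The replicate numbers did not pair the libraries: deviations of same-numbered libraries from their group means correlated at 0.02, -0.04 and 0.02. With the replicate block, 3 interferon-gamma pathway genes rose in place of 5, and PSMB9 was at -2.13. Counts limit PSMB9 most, with 26 in the knockout libraries together, so its size is the least precise of the 6.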
